A study of Mus musculus with 4 samples.

Results

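The genes of sterol and fatty acid synthesis were examined in Met-low and Met-high cells of B16-F10, a mouse melanoma line. The set held 35 genes, listed by their function in the pathway, and all 35 were among the 11958 genes kept of 20832 genes that had a named probe. A gene was kept if the scanner flagged its spot as well above background on both replicates of either population, and the brightest probe stood for the gene. The values that chose the members were thus brightness and detection. All 35 were well above background on all 4 arrays, so that none entered through 1 population alone and none lay just outside the rule. No difference between the populations entered the rule, but the set was put together with earlier results of these data in view.

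B16-F10 cells were stained for Met, the receptor of hepatocyte growth factor, and sorted by flow cytometry into cells with little (Met-low) and with much (Met-high) of the receptor on their surface. Both populations came from the same line, for which the labels give no drug or transgene, and grew for 3 days after the sort in RPMI medium with heat-inactivated serum, itself a source of lipids. RNA of 2 independently prepared samples of each population was hybridised to 1-colour arrays, 4 in all, and n was 2 for each population throughout. Values are log2 signals relative to the 75th percentile of the same array, and a ratio is the Met-high mean minus the Met-low mean on that scale, with its standard error (SE). Since a probe's brightness depends on its sequence, levels were compared between arrays for the same gene and not between genes.

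Cholesterol is built from acetyl-CoA through mevalonate, squalene and lanosterol, and fatty acids from acetyl-CoA through malonyl-CoA, with NADPH as the reductant of both. The membrane-bound transcription factors of the SREBP family control most enzymes of both routes. When sterols are scarce, SCAP escorts SREBP from the endoplasmic reticulum to the Golgi, where it is cut and released to the nucleus, while the INSIG proteins hold the complex back when sterols are plentiful. SREBP commonly acts on promoters together with NF-Y, which binds the CCAAT box, and with Sp1.

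The promoters of the members are shown first, as a description of their sequence. The members were chosen by pathway, so the shares below would be the same whichever population read higher and say nothing about the ratios. Of the 35 genes, 28 had at least 1 promoter in the RefSeq table of assembly GRCm38.p6, from 250 bases before to 50 bases after the start of the gene. The NF-Y box was searched as CCAAT on both strands, so that it also appears as ATTGG. It was found for 23 of the 28 genes (82.1%), and for 43.2% of the 9634 genes kept that had a promoter. Counted by promoter, 24 of 37 held it (64.9%), against 37.8% of the promoters of genes kept. Among the sterol enzymes, 14 of the 15 with a promoter held the box. The 5 members without it in this window were Acat2, Scap, Acaca, Elovl6 and Fads2. A sterol regulatory element, searched as TCACNCCAC on both strands, was found for 1 member, Hmgcs1 (3.57% of the 28), and for 1.43% of genes kept. Only exact matches to this form within this window were counted, so the search does not show that the other members lack such an element. The Sp1 box, GGGCGG on both strands, was present for 23 of 28 members (82.1%) and for 67.6% of genes kept. No motif overlapped another in the stretches below. The windows printed are the 200 bases up to the start of Hmgcs1, which held the sterol element, of the 4 sterol enzymes that passed the test of the ratio, and of Elovl6, which read lower in Met-high cells. Dhcr7 had 3 promoters, of which the one with the most NF-Y boxes is printed. Capitals mark the NF-Y box and, in Hmgcs1 alone, also the sterol regulatory element TCACCCCAC.
Hmgcs1, chr13:119690151-119690350, plus strand: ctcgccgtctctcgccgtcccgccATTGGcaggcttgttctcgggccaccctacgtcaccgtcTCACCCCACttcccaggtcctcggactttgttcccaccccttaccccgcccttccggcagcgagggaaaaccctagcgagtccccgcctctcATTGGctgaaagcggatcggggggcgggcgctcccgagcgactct
Mvd, chr8:122443423-122443622, minus strand: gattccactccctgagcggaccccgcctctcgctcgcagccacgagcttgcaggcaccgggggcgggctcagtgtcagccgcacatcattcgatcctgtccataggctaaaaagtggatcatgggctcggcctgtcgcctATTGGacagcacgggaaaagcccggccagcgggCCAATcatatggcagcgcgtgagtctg
Lss, chr10:76531405-76531604, plus strand: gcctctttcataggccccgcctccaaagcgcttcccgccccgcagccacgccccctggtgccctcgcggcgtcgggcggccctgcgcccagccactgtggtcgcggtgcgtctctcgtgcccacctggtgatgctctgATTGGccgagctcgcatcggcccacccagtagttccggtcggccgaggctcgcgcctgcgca
Tm7sf2, chr19:6067851-6068050, minus strand: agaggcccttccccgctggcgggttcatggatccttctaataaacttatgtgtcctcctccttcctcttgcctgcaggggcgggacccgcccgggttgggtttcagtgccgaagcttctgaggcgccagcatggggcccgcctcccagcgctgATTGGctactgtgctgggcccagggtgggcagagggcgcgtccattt
Dhcr7, chr7:143830014-143830213, plus strand: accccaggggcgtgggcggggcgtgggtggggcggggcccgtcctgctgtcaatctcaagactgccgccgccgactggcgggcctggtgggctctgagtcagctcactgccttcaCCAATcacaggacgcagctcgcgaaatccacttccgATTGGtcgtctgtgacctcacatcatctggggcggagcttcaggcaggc
Elovl6, chr3:129532186-129532385, plus strand: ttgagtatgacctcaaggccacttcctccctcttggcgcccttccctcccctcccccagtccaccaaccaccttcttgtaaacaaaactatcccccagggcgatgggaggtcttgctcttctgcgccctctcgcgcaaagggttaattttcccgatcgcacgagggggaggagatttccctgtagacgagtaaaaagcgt
Mvd and Dhcr7 each held 2 boxes in these windows, Lss and Tm7sf2 held 1 each, and Elovl6 held 0. Whether the box goes with the direction of the ratio was not tested, and only 3 of the 35 members had lower means in Met-high cells. In the full window Hsd17b7 and Insig2, whose means were also lower in Met-high cells, held 3 boxes each. For Insig2, with 3 promoters, this is the count in the promoter that held the most. Fads2, which passed the test as higher in Met-high cells, held 0. The letters describe the sequence, and binding of any factor was not measured.

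The array labels were first set against Met itself. Its transcript read -0.26 and -0.89 in Met-low cells and 1.03 and -0.43 in Met-high cells, a ratio of 0.87 (SE 0.51, limma, adjusted p = 0.333). Met-high replicate 2 thus lay between both Met-low arrays at the mRNA level, although the sort was made on surface protein, and the results for the members past the test and for the set are also given without it. Of 8 melanocyte markers, 8 were well above background on all 4 arrays, with a log2 summed signal between 10.45 and 10.74. Of 5 markers of adipocytes, the lipid-storing cells of skin fat, 0 were well above background on any array. Of the fibroblast markers 1 of 6, Col1a2, was well above background on all arrays. It passed the test as lower in Met-high cells (ratio -1.10, limma, adjusted p = 0.0311). The log2 summed signal of the fibroblast markers was -0.67 and -0.55 in Met-low cells and -1.47 and -1.65 in Met-high cells. That signal moved against the sterol genes, and its part in the results was not tested. For leukocytes 3 of 5 markers with a probe were well above background on all arrays, with log2 sums between 2.39 and 2.72 and with the defining Ptprc not well above background. Endothelial markers numbered 2 of 5 on all arrays, Kdr and Vwf, with Cdh5 and Tek not well above background. Their log2 summed signal was 2.68 and 2.49 in Met-low cells and 3.10 and 2.78 in Met-high cells, so it moved with the sterol genes. Kdr (ratio 0.36, adjusted p = 0.301) and Vwf (ratio 0.42, adjusted p = 0.229) did not pass the test, and their part in the results was not tested. Keratinocyte markers numbered 0 of 5 on all arrays, with log2 sums of -3.14 to -2.19. The arrays lay on 1 slide with the populations side by side, so that position and population cannot be told apart. In bulk RNA such as this, fewer cells of a type and less RNA per cell cannot be told apart.

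Most of the pathway read higher in Met-high cells. The mean was higher there for 32 of the 35 members, against 59.5% of all genes kept. For 28 members the populations were separate with Met-high above, that is, each Met-high array read higher than each Met-low array, against 35.7% of all genes kept. They were separate with Met-high below for 1, Elovl6, against 22.6%. The remaining 6, Hsd17b7, Insig1, Insig2, Stard4, Acaca and Scd1, overlapped. The median ratio of the members was 0.57, beside a median of 0.10 over all genes kept. The differences were mostly below 2-fold: 4 members exceeded it in Met-high cells (Tm7sf2, Fads2, Dhcr7 and Fdps; 2.43% of all genes did), and 0 in Met-low cells (5.29% did).

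**Figure D1:**
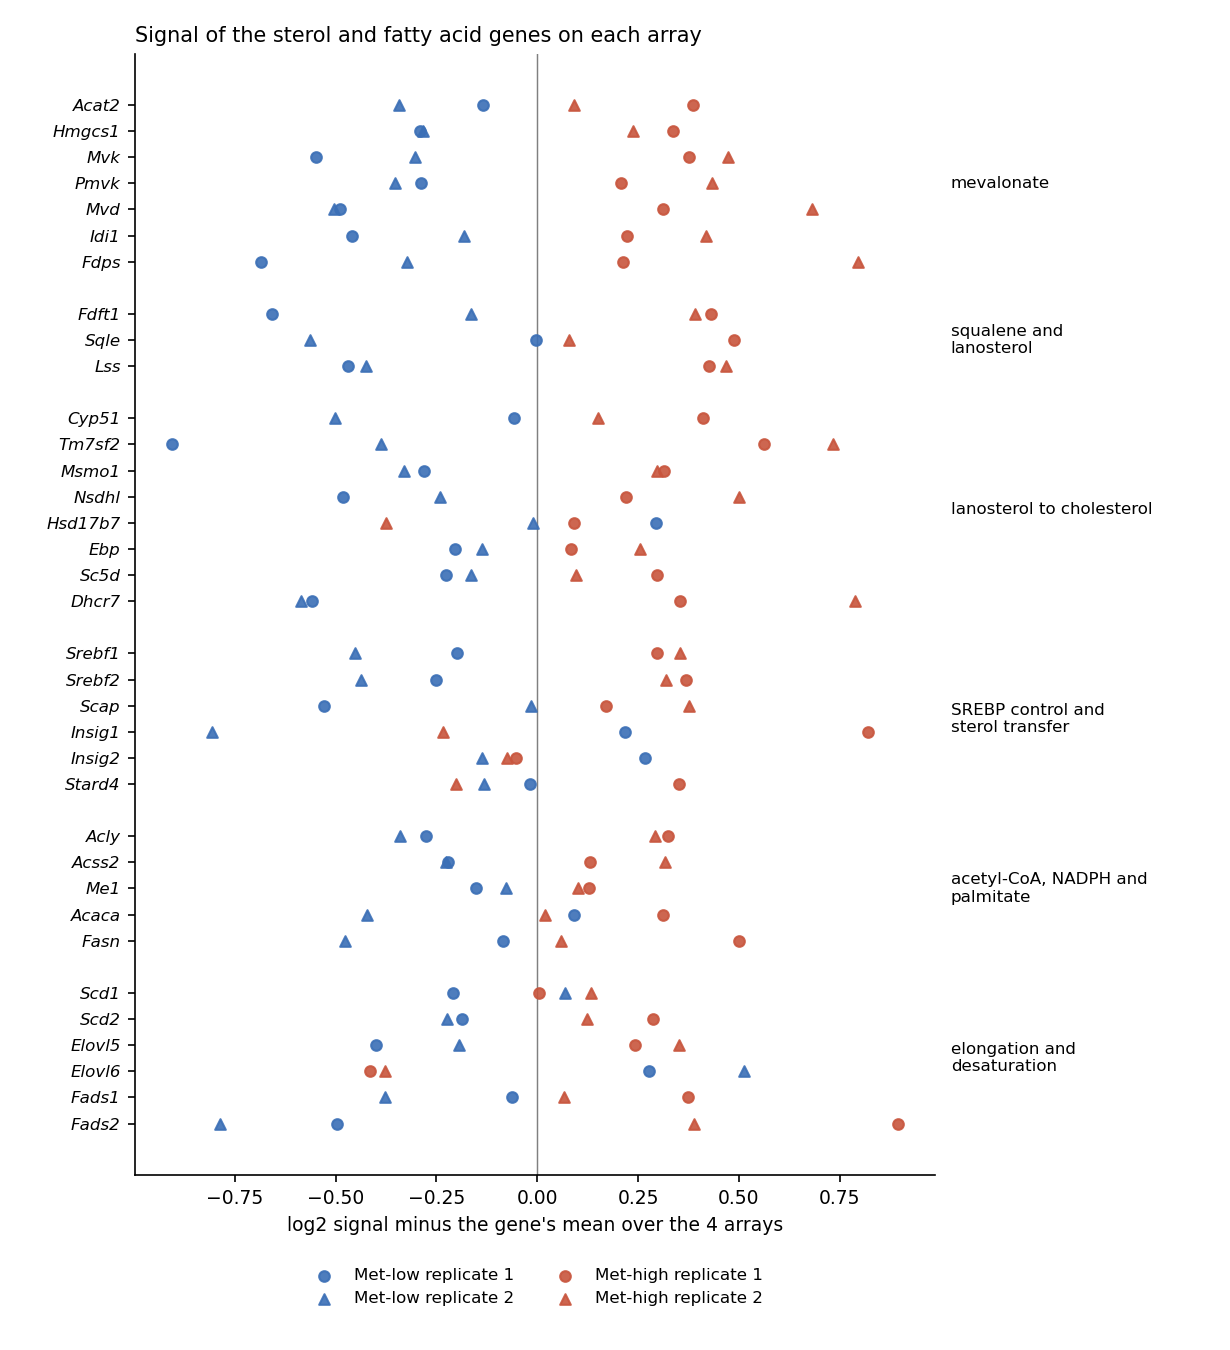
Log2 signal of each of the 35 genes on each array (x axis), as the difference from the mean of that gene over the 4 arrays, with genes grouped by role on the y axis. Circles are replicate 1 and triangles replicate 2 of Met-low (blue) and Met-high (red) cells. In 28 genes both red symbols lie to the right of both blue symbols, and in Elovl6 both lie to the left.

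After Benjamini-Hochberg adjustment over all 11958 genes in limma, 5 members were higher in Met-high cells, Mvd, Lss, Tm7sf2, Dhcr7 and Fads2, and 0 were higher in Met-low cells. Over all genes kept, 5.77% passed the same test, 1.95% with the higher value in Met-high cells and 3.82% in Met-low cells. At an unadjusted p under 0.05, 21 members were higher in Met-high cells and 1 in Met-low cells, and all genes 1715 and 1421. The test rested on few arrays: without Met-high replicate 2 or without Met-low replicate 1 only Fads2 passed, without Met-low replicate 2 only Tm7sf2, and without Met-high replicate 1 Dhcr7, Fdps, Mvd and Tm7sf2. The mean stayed higher in Met-high cells for 31 to 33 of the 35 members under each of these omissions, against 57.7% to 59.6% of all genes kept.

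**Figure D2:**
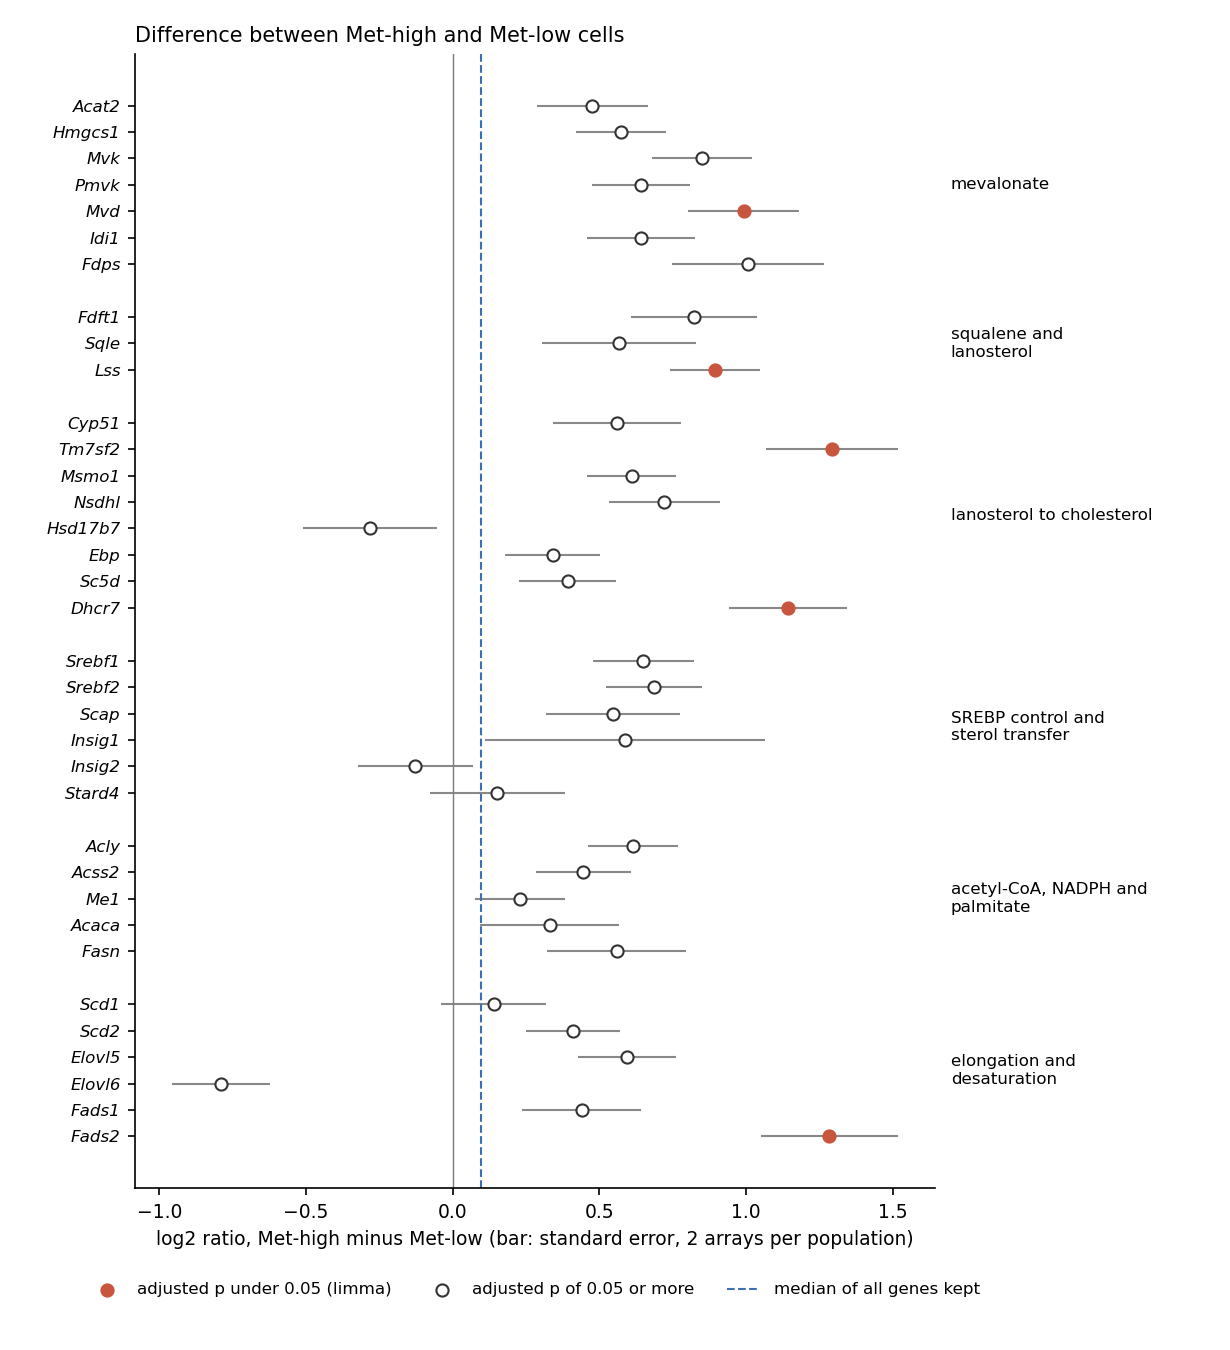
Log2 ratio of Met-high over Met-low cells for the 35 genes (x axis), with bars of 1 SE and 2 arrays per population. Filled circles are the 5 genes at an adjusted p under 0.05, and the dashed line at 0.10 is the median of all genes kept. The ratios run from -0.79 (Elovl6) to 1.29 (Tm7sf2).

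The mevalonate branch, which makes the isoprenoid units, read higher in Met-high cells at each of its 7 measured steps (59.5% over all genes kept). The populations were separate in 7 of 7 (35.7% over all genes kept), with a median ratio of 0.64. Passing the test was Mvd (NM_138656), mevalonate diphosphate decarboxylase, which forms isopentenyl diphosphate. It read 0.10 and 0.08 in Met-low cells, and 0.90 and 1.27 in Met-high cells. The Met-low arrays were nearly level and both Met-high arrays stood well above them. The ratio was 0.99 (SE 0.19, adjusted p = 0.0494), 1.99-fold, close to the threshold, and 0.81 (adjusted p = 0.126) without Met-high replicate 2. With all 4 arrays the largest ratio of the branch was that of Fdps (NM_001253751), farnesyl diphosphate synthase, which joins the isoprenoid units to farnesyl diphosphate. Its signal was 4.25 and 4.61 in Met-low against 5.14 and 5.73 in Met-high cells. The groups were apart, but the arrays within each spread more widely than for Mvd. With a ratio of 1.01 (SE 0.26) it did not pass the test (adjusted p = 0.0901). Its ratio was 0.72 without Met-high replicate 2 and 0.83 without Met-low replicate 1, in both cases below that of Mvd.

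The other 5 enzymes of the branch were short of the threshold, with ratios of 0.48 to 0.85 and adjusted p of 0.0558 to 0.190. Mvk, mevalonate kinase, came nearest. It read 2.63 and 2.88 in Met-low cells and 3.56 and 3.66 in Met-high cells (ratio 0.85, SE 0.17, adjusted p = 0.0558), and a dimmer probe of the same transcript gave a ratio of 1.07. Hmgcs1, the HMG-CoA synthase whose promoter held the sterol element shown above, read 1.97 and 1.98 in Met-low cells and 2.60 and 2.50 in Met-high cells (ratio 0.57, SE 0.15, adjusted p = 0.0989). Replicates of Hmgcs1 lay close together in both populations, without overlap.

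From farnesyl diphosphate to lanosterol, all 3 enzymes (Fdft1, Sqle and Lss) were separate with Met-high above (35.7% over all genes kept), with a median ratio of 0.82. Lss (NM_146006), lanosterol synthase, closes the first sterol ring system. Its signal was -0.39 and -0.35 in Met-low cells and 0.50 and 0.55 in Met-high cells. The replicates of each population nearly coincided, and the gap between populations was many times their spread (ratio 0.89, SE 0.15, adjusted p = 0.0380, 1.86-fold). Among the 35 members Lss had the lowest adjusted p, yet with any 1 array left out it did not pass (adjusted p 0.0699 to 0.123), although its ratio stayed between 0.87 and 0.92. Fdft1, squalene synthase, read 0.36 and 0.86 in Met-low cells and 1.45 and 1.41 in Met-high cells (ratio 0.82, SE 0.21, adjusted p = 0.0936). For Sqle, squalene epoxidase, an oxygen-requiring control point of the route, the values were 3.82 and 3.26 against 4.31 and 3.90 (ratio 0.57, SE 0.26, adjusted p = 0.243). In Sqle the higher Met-low array almost reached the lower Met-high array.

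The steps from lanosterol to cholesterol contained both of the largest sterol ratios. Tm7sf2 (NM_028454), a sterol C14 reductase, read -0.12 and 0.40 in Met-low cells and 1.35 and 1.52 in Met-high cells. Even the higher Met-low array was far below the lower Met-high array. Its ratio was 1.29 (SE 0.23, adjusted p = 0.0400, 2.45-fold), and 1.21 (adjusted p = 0.0545) without Met-high replicate 2. A second, dimmer probe gave 1.42. Dhcr7 (NM_007856), the reductase that turns 7-dehydrocholesterol into cholesterol, read 0.05 and 0.02 in Met-low cells and 0.96 and 1.40 in Met-high cells. The Met-low arrays were level and the Met-high arrays differed from each other but not by enough to approach them. The ratio was 1.14 (SE 0.20, adjusted p = 0.0410, 2.21-fold), and 0.93 (adjusted p = 0.0819) without Met-high replicate 2.

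The populations were separate, Met-high above, for 7 of these 8 genes (35.7% over all genes kept), with a median ratio over the 8 of 0.59. Of those that did not pass, the demethylation enzymes Cyp51, Msmo1 and Nsdhl had ratios of 0.56, 0.61 and 0.72, and the isomerase Ebp and the desaturase Sc5d had 0.34 and 0.39, with adjusted p of 0.0843 to 0.253. Hsd17b7, the 3-ketosteroid reductase of C4 demethylation, was the exception. It read -0.52 and -0.83 in Met-low cells and -0.73 and -1.19 in Met-high cells. The populations overlapped, and the ratio of -0.28 (SE 0.23, adjusted p = 0.469) was given by its 2 probes in the same direction. Counted over the whole route, 17 of 18 sterol enzymes were separate with Met-high above (35.7% over all genes kept), with a median ratio of 0.64. Of the 18, 4 passed the test as higher in Met-high cells (1.95% over all genes kept).

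The genes of SREBP control divided. Srebf2 (NM_033218), which encodes the SREBP most tied to sterol synthesis, read 0.14 and -0.05 in Met-low cells and 0.76 and 0.71 in Met-high cells (ratio 0.69, SE 0.16, adjusted p = 0.0765). Srebf1, whose products favour fatty acid synthesis, read -2.56 and -2.82 against -2.07 and -2.01 (ratio 0.65, SE 0.17, adjusted p = 0.0947). Scap, the escort, read 3.10 and 3.62 against 3.80 and 4.01 (ratio 0.55, SE 0.23, adjusted p = 0.207). In each of these 3 of the 6 genes of this role the populations did not overlap, Met-high above (35.7% over all genes kept), but none passed the test.

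The INSIG genes and Stard4 did not follow that pattern. Insig1 (NM_153526) read 0.09 and -0.93 in Met-low cells and 0.69 and -0.36 in Met-high cells. Replicate 1 was about as far above replicate 2 in each population, by more than the populations differed, and the ratio of 0.59 (SE 0.48, adjusted p = 0.472) had the largest error among the members. Insig2 read 3.12 and 2.71 against 2.80 and 2.78 (ratio -0.13, SE 0.20, adjusted p = 0.711), where both Met-high arrays lay between the Met-low arrays. A probe of another Insig2 transcript gave -0.65, with 1.86 and 1.61 in Met-low cells and 1.55 and 0.62 in Met-high cells. Stard4, a carrier of sterols between membranes, read -0.47 and -0.58 against -0.10 and -0.65 (ratio 0.15, SE 0.23, adjusted p = 0.710). A dimmer probe of the same Stard4 transcript read -3.31 and -3.49 against -2.60 and -2.54, a ratio of 0.83, so that its 2 probes disagreed in size.

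In the supply of acetyl-CoA and NADPH and the making of palmitate, 5 of 5 genes had higher means in Met-high cells (59.5% over all genes kept). Met-high read above without overlap for 4 of the 5 (35.7%), and 0 passed the test (5.77%). The median ratio of the 5 was 0.45. The largest ratio was that of Acly (NM_001199296), ATP citrate lyase, which releases cytosolic acetyl-CoA from citrate. It read 4.20 and 4.14 in Met-low cells and 4.80 and 4.77 in Met-high cells (ratio 0.62, SE 0.15, adjusted p = 0.0841). The replicates of Acly were close together and the populations apart. Fasn, fatty acid synthase, read -0.18 and -0.58 against 0.40 and -0.04 (ratio 0.56, SE 0.24, adjusted p = 0.212). Acss2, which makes acetyl-CoA from acetate, and Me1, the NADPH-forming malic enzyme, had ratios of 0.45 and 0.23 (adjusted p = 0.165 and 0.391).

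Acaca, acetyl-CoA carboxylase, makes malonyl-CoA and had 3 probes, all of the same transcript, that did not point the same way. The brightest read 3.60 and 3.09 in Met-low cells and 3.82 and 3.53 in Met-high cells (ratio 0.33, SE 0.24, adjusted p = 0.419). The others gave 0.37 and -0.45, so that the direction of Acaca is not settled by these arrays.

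**Figure D3:**
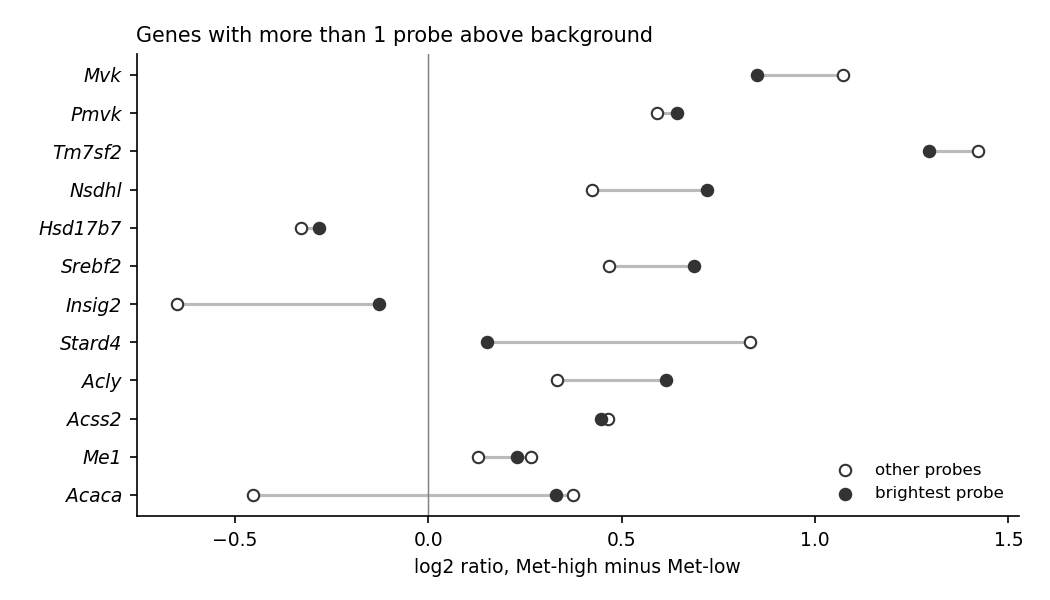
Log2 ratio of Met-high over Met-low cells (x axis) for the 12 genes with more than 1 probe above background, with 1 symbol per probe. Filled circles are the brightest probe, used for the gene, and open circles the others. In 11 of the 12 genes the probes share a sign, and in Acaca they run from -0.45 to 0.37.

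The elongases and desaturases went furthest apart from each other. Fads2 (NM_019699), the delta-6 desaturase that begins the synthesis of long polyunsaturated fatty acids, read -3.44 and -3.73 in Met-low cells and -2.05 and -2.56 in Met-high cells. The populations were well separated, in a gene that had the dimmest signal of the set, with background-corrected intensities of 86.7 and 100.2 in Met-low cells and 207 and 189 in Met-high cells. Its ratio was 1.28 (SE 0.23, adjusted p = 0.0445, 2.44-fold), and 1.54 (adjusted p = 0.0113) without Met-high replicate 2. Fads1, the delta-5 desaturase that acts after Fads2 in the same chain, had a ratio of 0.44 (SE 0.20, adjusted p = 0.242).

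Elovl6 (NM_130450), which extends palmitate to stearate, ran the other way. It read 0.91 and 1.14 in Met-low cells and 0.22 and 0.25 in Met-high cells, so that the populations were separate with Met-high below. With a ratio of -0.79 (SE 0.17, adjusted p = 0.0625) it fell short of the threshold. The ratio stayed between -0.94 and -0.67 under 14 alternative settings and passed the test in 3 of them. Elovl5, an elongase of polyunsaturated fatty acids, read 1.71 and 1.91 against 2.35 and 2.46 (ratio 0.59, SE 0.17, adjusted p = 0.110). The stearoyl-CoA desaturases, which make monounsaturated fatty acids, had ratios of 0.14 for Scd1 (adjusted p = 0.650) and 0.41 for Scd2 (adjusted p = 0.186). Scd1 overlapped between the populations, and its ratio was -0.0063 when arrays were scaled on detected probes alone. Over the 11 enzymes of fatty acid synthesis, 10 had higher means in Met-high cells (59.5% over all genes kept) and 8 were separate with Met-high above (35.7%). Of the 11, 1 passed the test as higher in Met-high cells (1.95%), and their median ratio was 0.44. Whether the sterol and fatty acid enzymes differ from each other in their ratios was not tested.

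**Figure D4:**
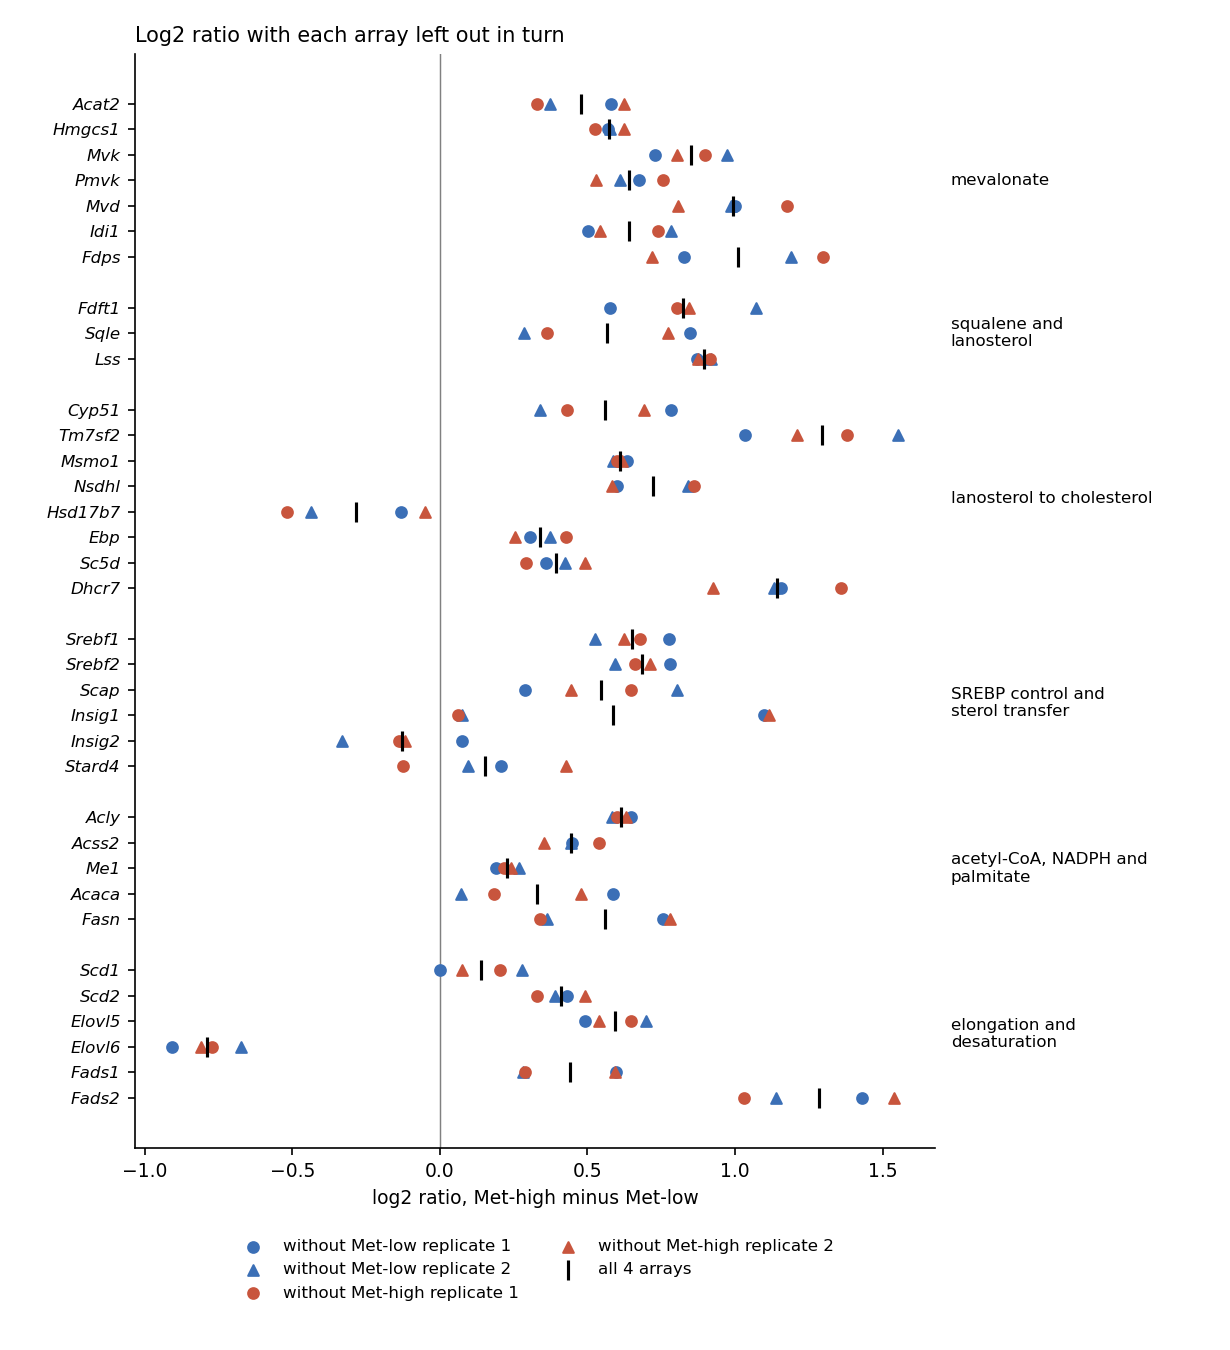
Log2 ratio of Met-high over Met-low cells (x axis) for the 35 genes with each array left out in turn (symbols) and with all 4 arrays (black bars). Most symbols stay on 1 side of 0, while those of Insig2 and Stard4 lie on both sides, and those of Insig1 spread from 0.06 to 1.11.

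Leaving out arrays moved single genes more than the set. Without Met-high replicate 2, the array that lay between the Met-low arrays for Met, 32 members had higher means in Met-high cells, against 58.3% of all genes kept, and the median ratio was 0.62. The single Met-high array then read above both Met-low arrays for 31 members, against 46.4% of all genes kept. Over the omission of each array the median was 0.52 to 0.62. Insig1 spread from 0.06 to 1.11, Insig2 gave 0.074 without Met-low replicate 1, and Stard4 gave -0.13 without Met-high replicate 1. Within populations the members varied about as much as other genes, with a median SD of 0.17 in Met-low cells and 0.138 in Met-high cells, against 0.153 and 0.161 over all genes kept.

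The ratio also depends on what the arrays are scaled to. The 75th percentile was then taken over probes detected on all arrays in place of all probes. The median of all genes kept went from 0.10 to -0.05 and that of the members from 0.57 to 0.43. The means of 31 members stayed higher in Met-high cells, against 45.1% of all genes kept. In that scaling 140 genes were higher in Met-high cells and 595 lower, against 233 and 457, and Dhcr7 was the member higher and Elovl6 the member lower in Met-high cells.

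The other genes of lipid metabolism were put in 6 lists of 102 genes, of which 99 were kept. Their median ratio was 0.16, with 4 genes higher and 3 lower in Met-high cells by the test, and 41 and 8 without overlap. The 4 include Gpam, which was not well above background on either Met-low array. Over all genes kept, the shares were 1.95% and 3.82% by the test, and 35.7% and 22.6% without overlap. In the list of sterol and isoprenoid synthesis 16 genes were kept, with a median ratio of 0.19. Of these, 14 read higher on average in Met-high cells, against 59.5% of all genes kept.

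SREBP processing and reductase turnover (12 genes, 1 called, median 0.02) gave Fbxw7, which marks nuclear SREBP and other proteins for degradation, lower in Met-high cells (-0.19 and -0.05 against -1.14 and -1.03, ratio -0.96, SE 0.16, adjusted p = 0.0363). Of 15 genes of sterol uptake, storage and efflux 0 were called (median 0.23). Further fatty acid synthesis and activation (19 genes, 1 called, median 0.21) gave Elovl4, an elongase of very long chains (-2.84 and -2.34 against -1.28 and -1.31, ratio 1.29, SE 0.22, adjusted p = 0.0363). Neither gene overlapped between the populations. Fbxw7 did not pass with any 1 array left out (adjusted p 0.0613 to 0.107), and Elovl4 did not without Met-low replicate 1 (adjusted p = 0.0695).

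In glycerolipid synthesis (17 genes, 3 called, median 0.19), Pcyt2, of phosphatidylethanolamine synthesis, was higher in Met-high cells (2.63 and 2.77 against 4.29 and 4.10, ratio 1.50, SE 0.17, adjusted p = 0.0146). Gpam, the first acyltransferase, did not reach the background criterion on either Met-low array and was kept through its Met-high arrays alone. It is counted among the 3 called, but its test used Met-low values below background, so no p is given for it here. It was at least 2.24-fold higher in Met-high cells, where the brighter mean was set against the detection limit of each Met-low array. That bound holds for this scaling of background-corrected signals alone: with a normexp background correction its log2 ratio was 0.57 and did not pass (adjusted p = 0.128). Lpin1, a phosphatidate phosphatase, was lower (-1.35 and -1.67 against -2.41 and -2.60, ratio -0.996, SE 0.19, adjusted p = 0.0499). Lpin1 passed in 7 of 14 alternative settings, and not with normexp (ratio -0.68, adjusted p = 0.0699), without Met-low replicate 1 (adjusted p = 0.149) or without Met-high replicate 2 (adjusted p = 0.111). Fatty acid oxidation, the opposite route (20 genes, 1 called, median 0.12), gave Cpt1c, a carnitine palmitoyltransferase of the brain type, which read 0.48 and -0.04 in Met-low cells and -1.81 and -1.83 in Met-high cells (ratio -2.04, SE 0.22, adjusted p = 0.0136). Whether the members differ from these lists was not tested.

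**Figure D5:**
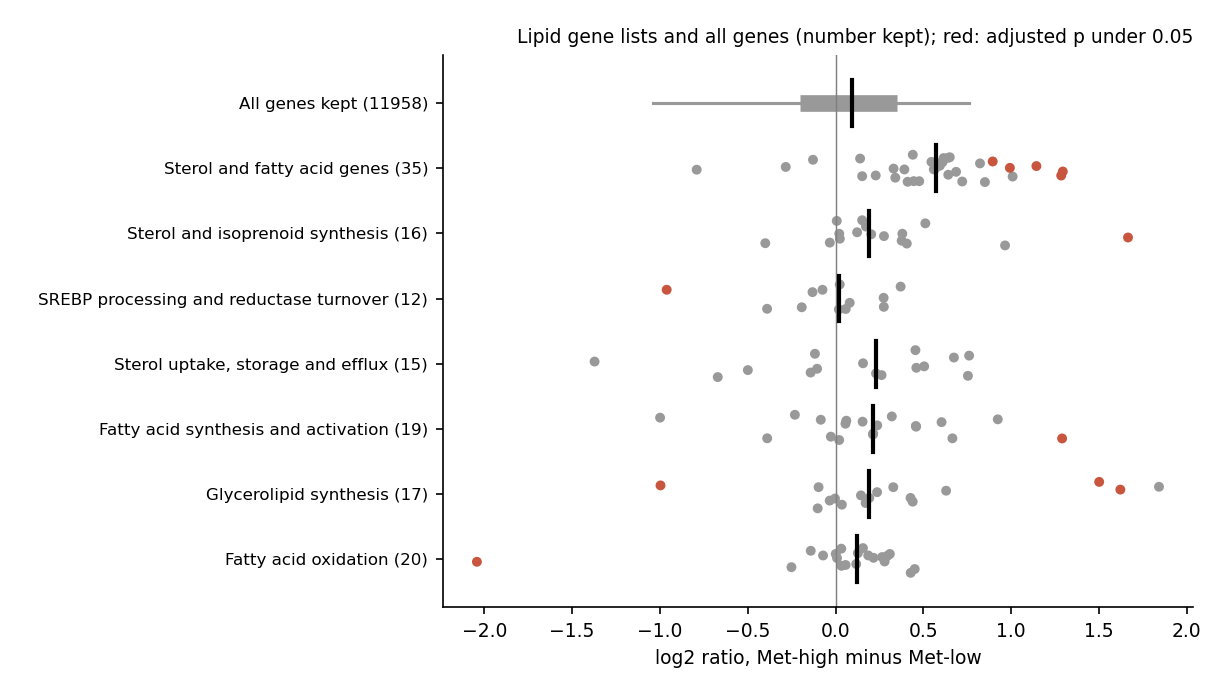
Log2 ratio of Met-high over Met-low cells (x axis) for the 35 genes and for 6 other lists of lipid genes, with the number kept in brackets. Each point is a gene, red points have an adjusted p under 0.05, and black bars are medians. For all genes the thick and thin grey bars span the middle 50% and 90%. Ratios of the few genes below background in 1 population are plotted as calculated. The median of the 35 genes is 0.57 and those of the other lists are 0.02 to 0.23.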

How the data were processed

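Cy3-labelled RNA of 2 Met-low and 2 Met-high samples was measured on 1-colour Agilent arrays. For each array the authors deposited its Feature Extraction output, with a background-corrected intensity per spot on a linear scale (version 11.0.1.1 in the file headers, 10.7.3.1 per the labels), and a table of processed log2 values. The deposited log2 table matched log2 intensity scaled to the 75th percentile and centred per probe, with 93.0% to 99.5% of probes within 0.01, its direction being that of the arrays.

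Here log2 intensity was scaled by subtracting the log2 of the 75th percentile over the 43020 non-control spots of each array (858 to 1331), floored at 0.01 (0 spots were below). Outlier spots (207 to 232 per array) were left out and 0 were saturated. Between 50.0% and 53.6% of spots were well above background. Of 39429 probes 27427 were named through the RefSeq gene table of GRCm38.p6. Met-high and Met-low arrays were tested in R 4.3.3 with limma 3.58.1 (lmFit, then eBayes), two-sided, with Benjamini-Hochberg adjustment over 11958 genes and a threshold of 0.05. The number of arrays limits the precision. A fit with 1 array left out assumes that the lone array varies like the other population. Where a probe was dim in 1 population, a bound was computed from normalised means.

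All members are accounted for. Values per array are given for members past the threshold, the largest ratio of each role, the genes of SREBP control, and genes whose probes disagree. Others, Elovl6 and Hsd17b7 among them, were named after their values were seen. Of other lists, genes past the threshold without overlap are named, except for a result that is not reported here. The members and lists were chosen with earlier results of these data known. Python 3.11.15 with pandas 2.3.3 and matplotlib 3.10.9 searched the promoters and drew the plots.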

Additional observations from a re-analysis of the deposited data

How the results depend on the processing

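The mean was higher in Met-high cells for 31 to 33 of the 35 genes under each of 14 alternative settings, while the number past the test moved, from 5 higher and 0 lower in Met-high cells. It was 6 and 1 with a normexp background correction, 3 with quantile normalization, 1 and 1 with scaling on detected probes (members' median 0.43, Scd1 -0.0063, and 140 genes higher in Met-high cells over the whole table), 0 without a filter on dim probes, 9 and 1 with a mean-variance trend (392 genes higher in Met-high cells) and 3 with a 2-fold minimum added. In the order listed, 2.19%, 1.85%, 1.17%, 0%, 3.28% and 1.51% of all genes tested passed as higher in Met-high cells. Without the filter, 20832 genes were tested, 0 were higher and 7 lower in Met-high cells, 0 genes of the other lipid lists passed (7 otherwise), and 658 and 1398 genes exceeded 2-fold. Past 2-fold were 291 genes higher and 633 lower in Met-high cells, 124 and 313 with normexp, and 172 in Met-high cells among genes detected on all 4 arrays. With each array left out, 1 to 4 members were called in Met-high cells, and 155 to 264 genes over the whole table. Over these omissions Insig2 ran from -0.33 to 0.074 (without Met-low replicate 1) and Stard4 from -0.13 (without Met-high replicate 1) to 0.43. The replicate numbers 1 and 2 are shared by the populations, but nothing in the labels says that they mark a shared batch, and with 2 pairs the correlation of the deviations of same-numbered arrays, 0.539 over 11958 genes, does not settle it. With the replicate number as a block, 25 members were called higher and 1 lower in Met-high cells, 26 genes of the other lists, and 1976 and 1580 genes in all. The causes of these changes were not tested. With 2 arrays per population, differences under about 2-fold lay close to the threshold, and dim genes such as Fads2 had the least signal over background.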
